A study of Mus musculus with 9 samples.

Results

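The genes described here are those that build ribosomes: RNA polymerase I, which transcribes the ribosomal RNA precursor, and the nucleolar factors that modify, cut, fold and assemble that RNA, together with Myc, a transcription factor known to drive many of them. The list holds 54 gene symbols. A member was taken as a gene row whose symbol matched exactly, which gave 52 of the 23332 gene rows. The remaining 2, Nolc1 and Nop2, were present only in rows whose name is joined to that of a neighbouring gene, and they are reported separately.

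RNA was measured by sequencing in FVB MOE cells, a line of mouse oviductal epithelial cells of the secretory type that descends from 1 clone, so all samples share 1 genetic background and 1 clonal history. They are normally grown in medium that holds estradiol. All 9 samples were first starved of hormone for 48 h and then treated for 24 h. All 9 held the solvent, DMSO, at 0.1%. The control group received it alone, with 3 samples in each group. Another group received 1 nM E2 (17β-estradiol, the main natural estrogen). The last received 100 nM 4OHT (4-hydroxytamoxifen, the active metabolite of tamoxifen and a modulator of the estrogen receptor). The labels number the replicates 1 to 3 in every group but do not say that they are separate cultures, so a p-value measures the spread between these samples, which may be technical.

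Ribosome production starts in the nucleolus, where RNA polymerase I copies the ribosomal RNA genes into one long precursor. Small nucleolar ribonucleoproteins (snoRNPs) guide chemical modification of that precursor: box C/D particles add methyl groups and box H/ACA particles turn uridines into pseudouridines. The small subunit processome and the large subunit assembly factors then cut and fold the RNA around ribosomal proteins. Growing cells spend much of their transcription on this pathway, and MYC is known to set its pace in many tissues.

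The values are FPKM, fragments per kilobase of transcript and per unit of library size, as the authors deposited them. Their sum over all rows was between 522517 and 588640 per sample, with 11037 to 11175 rows at 1 or more, and since no read counts were used, the counting error of a single gene is unknown. The secretory markers Pax8 and keratins Krt7, Krt8, Krt18 and Krt19 were all expressed, whereas the oviductal glycoprotein gene Ovgp1 was low and the epithelial adhesion genes Epcam and Cdh1 were under 0.5 FPKM. The 8 secretory markers, 6 of them with a median of at least 1 FPKM, summed to 1415 to 1558 FPKM in DMSO, 2322 to 2562 in E2 and 1473 to 1673 in 4OHT. Krt7, Krt8, Krt18 and Krt19 were each higher in every E2 sample than in any DMSO sample. Krt7 was at 222 to 439 FPKM in DMSO and 748 to 927 in E2. Pax8, at 107 to 142 and 121 to 150, and Ovgp1, at 1.99 to 2.61 and 1.44 to 2.01, overlapped between these groups. In DMSO, E2 and 4OHT the 5 ciliated markers summed to 18.2 to 20.9, 14.0 to 18.1 and 18.6 to 20.8 FPKM, and the 7 stromal markers to 939.7 to 1421, 1313 to 1735 and 1253 to 1523. The ciliated markers differed among themselves. Foxj1 was at 13.6 to 15.9 FPKM in DMSO and 8.95 to 13.0 in E2, whereas Rsph1 was at 2.98 to 3.21 and 3.52 to 3.86. The stromal sum was almost all Acta2, a contractile gene at 931.9 to 1724 FPKM, only 3 of the 7 had a median of at least 1, and Pdgfra, Pdgfrb, Col3a1 and Lum were at or near 0. The 5 immune markers summed to at most 4.08 FPKM and the 5 endothelial markers to at most 1.42 in any sample. The part of these shifts in the results below was not tested. A fall in the RNA of 1 cell and a fall in the number of cells that make it cannot be told apart in bulk samples.

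All 52 members passed the filter for testing, which asked for 1 FPKM or more in 3 or more of the samples, as did 11339 rows in all. Their mean FPKM over the 9 samples ran from 6.75 for Polr1e, a subunit of RNA polymerase I, to 690.4 for Npm1, the nucleolar chaperone nucleophosmin. Since FPKM is a level per length of transcript, these levels can be set side by side: 5 members were at 100 or more, 44 between 10 and 100, and 3 under 10. The 54 genes lay on 18 chromosomes, with at most 9 on one. Fold changes are differences between group means of log2(FPKM + 1), and adjusted p-values come from limma over all tested rows with the Benjamini-Hochberg correction. Each fit was made with and without the replicate number as a block, which compares E2, 4OHT and DMSO samples within the same number.

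In E2, nearly all members were read out below DMSO. The members and the other lists were chosen with earlier results of these data known. Their shares beside all tested rows, here and below, therefore describe the lists and do not test them. The log2 fold change was below 0 in 51 of the 52 members, against 50.8% of all tested rows, and 39 of the 52 (75%) were lower in all 3 replicate pairs, against 24.3% of all tested rows. Both counts include Ncl, listed at exactly 0 in E2 replicate 1. Without it, 50 of 51 were below 0 and 38 were lower in all 3 pairs. No member was higher in all 3 pairs, against 28.1% of all rows. The differences were small: the median log2 fold change was -0.18, against -0.00 for all tested rows, and the 51 members with no FPKM of 0 lay between -0.40 and 0.03. The exception above 0 was Rrp1b, at 0.03. The median moved with single libraries: in the fit without the block it was -0.07 without DMSO replicate 2 and -0.25 without DMSO replicate 1. Each of these fits left an E2 sample without its DMSO pair. With all samples of replicate 2 left out, the median in the blocked fit was -0.13.

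Without the block, limma called 0 of the 52 members, where the background was 0.512% of tested rows called in either direction and 0.0176% called lower. At an unadjusted p under 0.05 it called 1 member, Wdr12, against 10.9% of all tested rows. With the replicate number as a block, 16 members fell and 0 rose, which is 30.8% of the members against 4.63% of all tested rows called lower and 10.4% called higher. The 16 were Myc, Polr1b, Nop56, Fbl, Dkc1, Mybbp1a, Nop14, Noc4l, Utp14a, Rrp9, Rrp12, Wdr12, Ftsj3, Nop16, Noc2l and Rrp15. Their mean FPKM in E2 was between 25.9% and 13.5% under that in DMSO. Their limma standard errors were 0.088 to 0.25 without the block and 0.042 to 0.098 with it, and their adjusted p-values 0.388 to 0.730 without it and 0.0178 to 0.0463 with it. With 2 pairs left, the blocked fit called lower 4 members without replicate 1, 0 without replicate 2 and 0 without replicate 3, against 0.935%, 0.397% and 0.185% of all tested rows, while the median log2 fold change of the members was -0.24, -0.13 and -0.18. Over all tested rows the blocked fit called 1177 higher and 525 lower, a split that became 914 and 1069 when samples were scaled to the same upper quartile, and under that scaling 29 members fell and 0 rose, against 9.43% of all rows called lower.

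In DMSO and in 4OHT, the replicates of the median member lay further apart than its log2 fold change in E2. Replicate 2 held the highest value of its group for 51 of the 52 members in DMSO, 43 in E2 and 49 in 4OHT, whereas over all tested rows it did so for 36.5%, 27.5% and 37.1%. Relative to each gene's mean over the 9 samples, the median member stood at -0.10, 0.26 and -0.02 on the log2 scale in DMSO replicates 1 to 3. In E2 the same medians were -0.15, -0.04 and -0.17, and in 4OHT they were -0.01, 0.25 and -0.01. E2 replicate 2, the highest of its group, lay above DMSO replicate 1 and below DMSO replicates 2 and 3. The E2 and DMSO groups overlapped for most members, and only 5 of 52 (9.62%) had every E2 sample below every DMSO sample, against 6.05% of all tested rows: Polr1c, Nop14, Bop1, Wdr12 and Ddx18.

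Within replicate numbers the size of the E2 difference varied. In replicate 1 the median difference of log2(FPKM + 1) was -0.05 and 40 of 52 members were lower, against 44.8% of all tested rows. These 40 include Ncl, listed at exactly 0 in E2 replicate 1. Replicate 2 had a median of -0.29 with 52 of 52 lower, against 51% of rows, and replicate 3 a median of -0.16 with 49 of 52 lower, against 49.8%. The estrogen-induced genes also stood apart in replicate 1, where Pgr, the progesterone receptor gene, was already at 9.58 FPKM in DMSO against 1.36 and 1.16 in DMSO replicates 2 and 3, and at 38.1, 21.1 and 15.9 in E2. The part of this difference in the size of the E2 effect on the members was not tested.

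**Figure D1:**
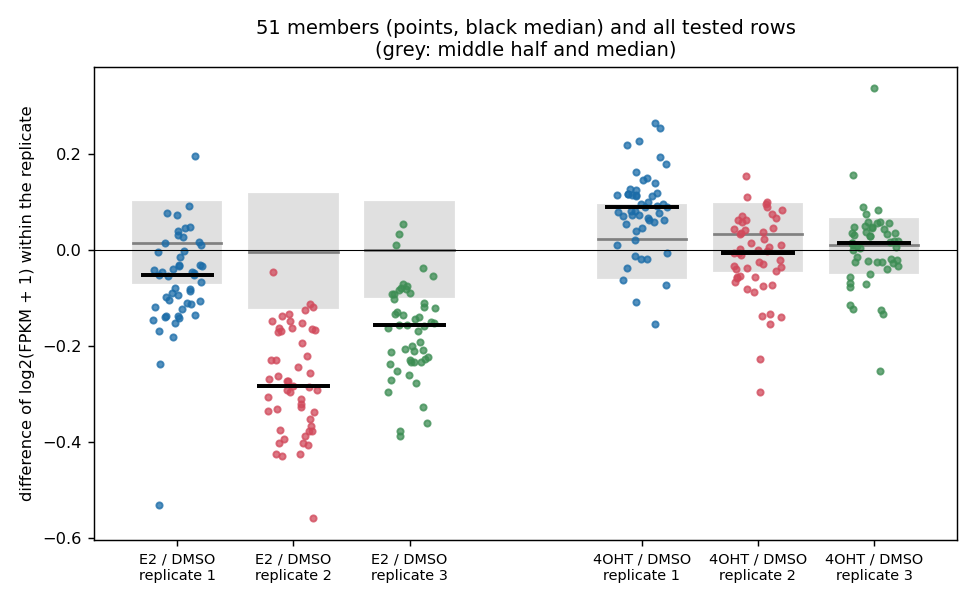
Difference of log2(FPKM + 1) from the DMSO sample of the same replicate number (vertical axis), with 1 point for each of the 51 members that had no FPKM of 0, their median in black, and the interquartile range and median of all tested rows in grey. The E2 medians of the members lie at -0.05, -0.28 and -0.16 in replicates 1 to 3, and the 4OHT medians at 0.09, -0.01 and 0.01.

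Myc (chr15:61985391-61990374, mm10, plus strand) encodes the transcription factor c-MYC, which binds E-box sequences in genes for growth and ribosome production. Its FPKM in replicates 1, 2 and 3 was 55.8, 98.1 and 78.5 in DMSO, 50.6, 73.7 and 67.0 in E2 and 63.9, 103 and 77.2 in 4OHT. The groups overlapped, while E2 was the lowest of the 3 treatments in every replicate. The mean FPKM of Myc was 17.6% lower in E2 than in DMSO. Its log2 fold change was -0.26 (SE 0.064, limma adjusted p = 0.0463 with the block), a difference within the spread without the block (SE 0.25, adjusted p = 0.730). In the fit without the block, leaving out single samples moved the log2 fold change between -0.47 and -0.07, the latter without DMSO replicate 2. Without E2 replicate 1 it was -0.10. Within replicates 1, 2 and 3 the log2 difference was -0.14, -0.41 and -0.22.

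The E-box CACGTG is the classical binding sequence of MYC with its partner MAX, and the promoters of the members were therefore read for it. RefSeq windows of 300 bases, 250 before the start and 50 after it (GRCm38.p6), were at hand for 46 of the 54 genes; the letters read the same on both strands. The E-box was present in 8 of the 46 windows (17.4%), against 12.1% of 7827 tested genes and 8.09% of 27025 genes in all. Of the 13 members with a window that fell in E2 with the block, 1 held it (7.69%), Mybbp1a. The consensus estrogen response element, GGTCA and TGACC with any 3 bases between them and also alike on both strands, was in 0 of the 46 windows, 0 of the 7827 and 0.074% of the 27025. A match describes the letters only and is not a measured binding site. The sites are shown because they are the stretches of member promoters that hold this sequence, each with up to 10 bases on either side and the E-box in capitals, written 5′ to 3′ on the gene's strand.
Mybbp1a (chr11:72441357-72441376, plus strand): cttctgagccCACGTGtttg
Nop2 (chr6:125131813-125131838, plus strand): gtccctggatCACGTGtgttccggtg
Pes1 (chr11:3963967-3963992, plus strand): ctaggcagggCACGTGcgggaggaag
Rrn3 (chr16:13780474-13780499, plus strand): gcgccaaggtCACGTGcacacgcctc
Rrn3 (chr16:13780641-13780666, plus strand): acgctctgctCACGTGggccgcgtcc
Tsr1 (chr11:74898094-74898119, plus strand): acttggtgcaCACGTGgactgcagaa
Utp18 (chr11:93885771-93885796, minus strand): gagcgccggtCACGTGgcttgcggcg
Utp20 (chr10:88826765-88826787, minus strand): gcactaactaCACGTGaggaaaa
Wdr43 (chr17:71616222-71616247, plus strand): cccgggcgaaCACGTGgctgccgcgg

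Rrn3 held 2 E-boxes, and its 250 bases before the start are shown whole to give both in place. The capitals again mark the E-box.
Rrn3 (chr16:13780449-13780698, plus strand): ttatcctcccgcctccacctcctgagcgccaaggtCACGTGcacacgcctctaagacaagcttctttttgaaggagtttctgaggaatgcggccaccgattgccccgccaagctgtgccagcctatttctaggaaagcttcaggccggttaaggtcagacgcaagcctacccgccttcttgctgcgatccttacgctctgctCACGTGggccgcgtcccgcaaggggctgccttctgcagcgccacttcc

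Of the genes with an E-box in their window, Mybbp1a passed the blocked test in E2, and the joined row of Nop2 did not. Pes1, Rrn3, Tsr1, Utp18, Utp20 and Wdr43 did not pass either, with log2 fold changes in E2 of -0.13, -0.05, -0.12, -0.09, -0.20 and -0.17 in that order.

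Of the 8 members that form RNA polymerase I or help it to initiate, all 8 had a log2 fold change below 0 in E2, against 50.8% of all tested rows. Their median was -0.15. In the blocked test 1 passed, against 4.63% of all tested rows called lower, so that the count is no result about this group. The member that passed was Polr1b (chr2:129100995-129126594, plus strand), the second largest subunit, which helps to form the catalytic site. It stood at 12.6, 16.0 and 14.7 FPKM in DMSO, 11.1, 12.9 and 12.4 in E2 and 13.2, 16.4 and 13.5 in 4OHT. The E2 samples lay below every 4OHT sample, and overlapped DMSO only through DMSO replicate 1. The log2 fold change against DMSO was -0.23 (SE 0.05, limma adjusted p = 0.0326 with the block and 0.516 without). The largest subunit, Polr1a, was at 13.2, 17.3 and 15.2 FPKM in DMSO and 12.8, 15.3 and 12.4 in E2 and did not pass with the block (adjusted p = 0.103). Polr1d, shared with RNA polymerase III and the most abundant of this group, was at 336, 375 and 386 FPKM in DMSO, 324, 338 and 336 in E2 and 346, 395 and 394 in 4OHT, with 1 DMSO sample inside the E2 range and a blocked adjusted p of 0.0615. Ubtf, which opens the ribosomal DNA, and Rrn3, which carries the polymerase to its promoter, had log2 fold changes of -0.11 and -0.05, the smallest of the 8, with blocked limma adjusted p-values of 0.0721 and 0.409.

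The box C/D particle has 3 core proteins among the members, and 2 of them fell in the blocked fit, against 4.63% of all tested rows. Nop56 (chr2:130274430-130279313, plus strand), which holds the particle together, was at 78.9, 115 and 90.4 FPKM in DMSO, 71.1, 85.1 and 73.4 in E2 and 82.6, 109 and 89.1 in 4OHT. E2 was lowest in each replicate, and the E2 value of replicate 2 lay inside the DMSO range. Its log2 fold change of -0.29 (SE 0.052) had the lowest blocked limma adjusted p of all members, 0.0178, against 0.555 without the block. Fbl (chr7:28169710-28179269, plus strand) encodes fibrillarin, the methyltransferase of the particle. It was read at 122, 165 and 129.6 FPKM in DMSO, 111, 132 and 112 in E2 and 135, 168 and 131 in 4OHT. Its mean FPKM was 15.0% lower in E2 than in DMSO (log2 fold change -0.22, SE 0.042, limma adjusted p = 0.0209 with the block and 0.612 without). Nop58, the partner of Nop56, was at 56.3, 72.7 and 60.3 FPKM in DMSO and 58.2, 58.5 and 55.0 in E2. It was higher in E2 in replicate 1 and did not pass with the block (adjusted p = 0.214).

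The 4 box H/ACA proteins were less uniform. Dkc1 (chrX:75095854-75109777, plus strand), dyskerin, is the pseudouridine synthase, and was at 26.3, 38.6 and 30.5 FPKM in DMSO, 24.4, 29.2 and 26.5 in E2 and 28.6, 38.4 and 30.9 in 4OHT. Its mean FPKM was 15.9% lower in E2 than in DMSO (log2 fold change -0.23, SE 0.055, limma adjusted p = 0.0436 with the block and 0.640 without). Nop10, a small scaffold protein of the same particle and its most abundant member, was read at 125, 128 and 119 FPKM in DMSO, 132, 116 and 124 in E2 and 130.3, 136 and 125 in 4OHT. The E2 and DMSO samples of Nop10 were interleaved, and its log2 fold change was -0.00 (SE 0.053, adjusted p = 0.985 with the block). Nhp2 and Gar1, the remaining core proteins, had log2 fold changes of -0.21 and -0.19, with blocked limma adjusted p-values of 0.0708 and 0.171.

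**Figure D2:**
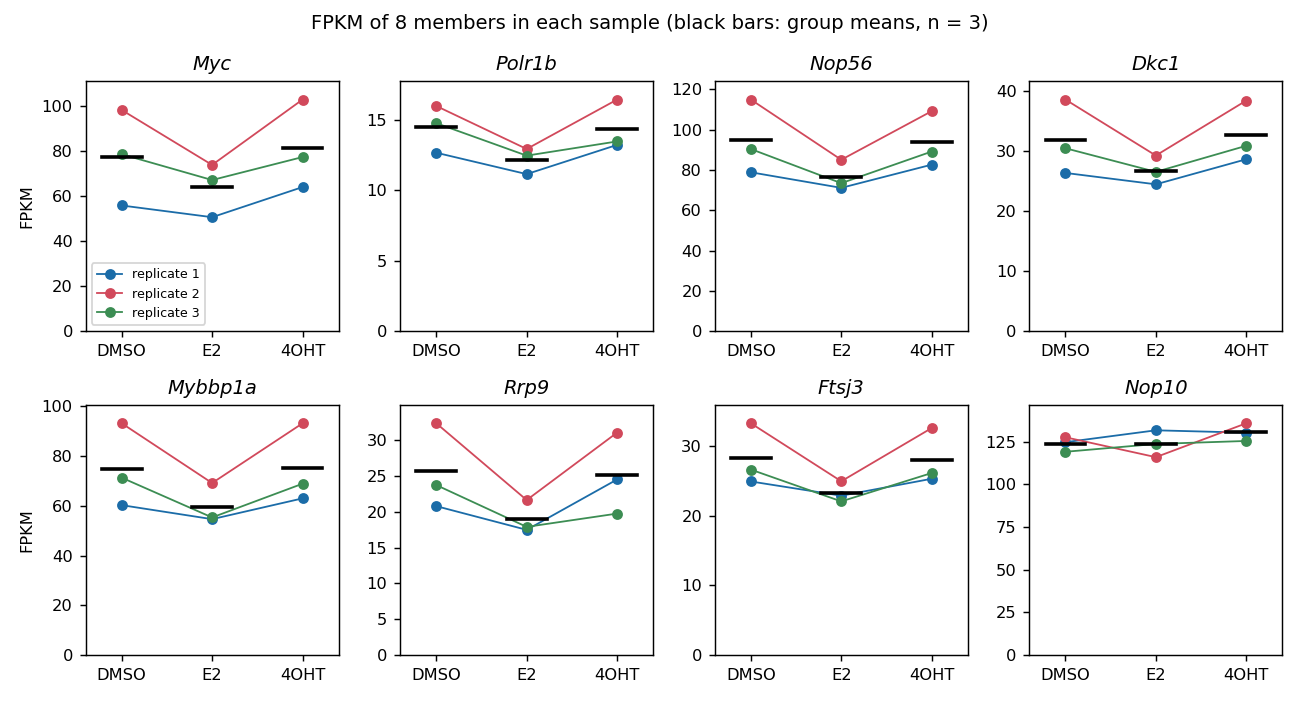
FPKM (vertical axes, each starting at 0) of 8 members in DMSO, E2 and 4OHT, with 1 line per replicate number and black bars for the group means of 3 samples. In Myc, Polr1b, Nop56, Dkc1, Mybbp1a, Rrp9 and Ftsj3 every line is lower at E2 than at DMSO and replicate 2 is highest in each group, while the lines of Nop10 cross.

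Among the nucleolar chaperones and organisers, 5 had rows of their own. In the blocked fit 1 fell, against 4.63% of all tested rows, so that the count is no result about this group. Mybbp1a (chr11:72441355-72451768, plus strand), a nucleolar protein that binds MYB and takes part in ribosomal RNA processing, was at 60.3, 93.2 and 71.3 FPKM in DMSO, 54.6, 69.2 and 55.3 in E2 and 63.0, 93.2 and 68.9 in 4OHT. The E2 value was the lowest in each replicate, with groups that overlapped. The log2 fold change was -0.31 (SE 0.057, limma adjusted p = 0.0199 with the block and 0.617 without). Npm1 (chr11:33152287-33163206, minus strand), the most abundant member, was at 644, 824 and 662 FPKM in DMSO, 620.5, 656 and 588 in E2 and 685, 845 and 689 in 4OHT. Every E2 sample was below every 4OHT sample, and E2 was below DMSO in each pair, but the blocked adjusted p against DMSO was 0.0709. Npm3 and the RNA helicase gene Ddx21 were also lower in all 3 pairs, with log2 fold changes of -0.21 and -0.18 and blocked limma adjusted p-values of 0.0603 and 0.0569.

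Ncl (chr1:86344719-86359400, minus strand), nucleolin, was the 1 member with exact zeros. Its FPKM was 203, 285 and 208 in DMSO, 0, 223 and 184 in E2 and 219, 0 and 215 in 4OHT. It was thus listed at 0 in E2 replicate 1 and 4OHT replicate 2, and between 184 and 285 FPKM in the other 7 samples. An exact 0 in such a gene may be a failed estimate, and 245 of the 11339 tested rows had at least 1. The log2 fold change of -2.73 (SE 2.6) in E2 and that of -2.67 (SE 2.6) in 4OHT rest on these zeros. With the 2 samples taken as missing for this gene, the values with the block were -0.25 in E2 (SE 0.069, limma adjusted p = 0.0546) and 0.05 in 4OHT (SE 0.056, adjusted p = 0.675).

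The 15 members of the small subunit processome all had log2 fold changes below 0 in E2, against 50.8% of all tested rows, with a median of -0.14. In the blocked fit 5 fell, against 4.63% of all tested rows: Nop14, Noc4l, Utp14a, Rrp9 and Rrp12. Rrp9 (chr9:106475963-106485424, plus strand), which binds the U3 snoRNA, showed the largest fold change of the 51 members with no zero. It was at 20.8, 32.4 and 23.7 FPKM in DMSO, 17.5, 21.7 and 17.9 in E2 and 24.5, 31.1 and 19.8 in 4OHT. E2 was lowest in each replicate, and only the E2 value of replicate 2 reached the DMSO range. The mean FPKM of Rrp9 was 25.9% lower in E2 than in DMSO (log2 fold change -0.40, SE 0.098, limma adjusted p = 0.0463 with the block and 0.533 without). Nop14 was at 23.7, 29.0 and 23.8 FPKM in DMSO and 22.3, 23.6 and 20.1 in E2, groups that did not overlap, and its binding partner Noc4l was at 24.7, 33.9 and 27.9 FPKM in DMSO and 22.3, 26.6 and 25.3 in E2, which did. Both fell, with log2 fold changes of -0.20 and -0.20 and blocked limma adjusted p-values of 0.0336 and 0.0463. Utp14a, which activates the helicase that releases U3, was at 14.1, 18.3 and 14.4 FPKM in DMSO and 13.5, 15.0 and 12.1 in E2 (log2 fold change -0.19, SE 0.047, limma adjusted p = 0.0448 with the block).

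Rrp12, which takes part in export of the pre-ribosomal subunits from the nucleus, was at 13.5, 19.7 and 15.4 FPKM in DMSO, 12.4, 16.3 and 12.1 in E2 and 13.5, 19.1 and 14.0 in 4OHT. The spread between its replicates was wide beside the difference between treatments, with a standard error of 0.18 without the block and 0.045 with it, for a log2 fold change of -0.23 (limma adjusted p = 0.674 and 0.0229). Wdr43, a processome protein with the highest mean level of this group, was at 33.8, 47.7 and 38.8 FPKM in DMSO, 34.5, 36.5 and 34.8 in E2 and 36.2, 46.5 and 39.2 in 4OHT, with replicate 1 higher in E2. It did not pass (blocked adjusted p = 0.173). The smallest fold changes of the group were those of Utp3 and Utp15, both -0.05, with 1 of 3 pairs higher in E2 for each.

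In the large subunit assembly group, 15 of the 16 members had log2 fold changes below 0 in E2, against 50.8% of all tested rows, with a median of -0.18. In the blocked fit 5 fell, against 4.63% of all tested rows: Wdr12, Ftsj3, Nop16, Noc2l and Rrp15. Wdr12 works in a complex with Bop1 and Pes1. Its FPKM was 15.1, 18.1 and 14.8 in DMSO, 13.4, 13.5 and 13.1 in E2 and 16.2, 17.3 and 14.5 in 4OHT, so that no E2 sample reached the range of either other group. The log2 fold change was -0.24 (SE 0.058, limma adjusted p = 0.0438 with the block and 0.388 without, the lowest unblocked value of the members). Bop1, the most abundant of the group, was at 71.8, 83.1 and 73.7 FPKM in DMSO, 69.6, 70.8 and 66.8 in E2 and 79.7, 86.8 and 68.0 in 4OHT, and its E2 samples were all below DMSO. Bop1 and Pes1 nevertheless missed the blocked threshold, with log2 fold changes of -0.14 and -0.13 and adjusted p-values of 0.181 and 0.131.

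Ftsj3 (chr11:106249142-106256079, minus strand), an RNA methyltransferase of the nucleolus, had the largest fold change of this group. It was at 24.9, 33.3 and 26.6 FPKM in DMSO, 22.9, 24.9 and 22.1 in E2 and 25.3, 32.6 and 26.1 in 4OHT, with the E2 value of replicate 2 at the lower edge of the DMSO range. The log2 fold change was -0.26 (SE 0.056, limma adjusted p = 0.0300 with the block). Rrp15, at 20.4, 29.2 and 22.9 FPKM in DMSO and 19.0, 21.5 and 19.4 in E2, followed closely with -0.25 (adjusted p = 0.0421). Noc2l, which escorts early large subunits and also binds p53, was at 17.3, 24.6 and 19.9 FPKM in DMSO and 15.8, 19.3 and 16.8 in E2, and Nop16, a nucleolar protein of this pathway, was at 18.7, 24.0 and 19.2 FPKM in DMSO and 16.9, 19.7 and 15.7 in E2. Both were lower in all 3 pairs with overlapping groups, at log2 fold changes of -0.23 and -0.23 (blocked limma adjusted p = 0.0226 and 0.0463). Rrp1b, the member that lay above 0, was at 7.78, 9.24 and 7.71 FPKM in DMSO and 9.06, 8.33 and 7.91 in E2, higher in 2 of 3 pairs.

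**Figure D3:**
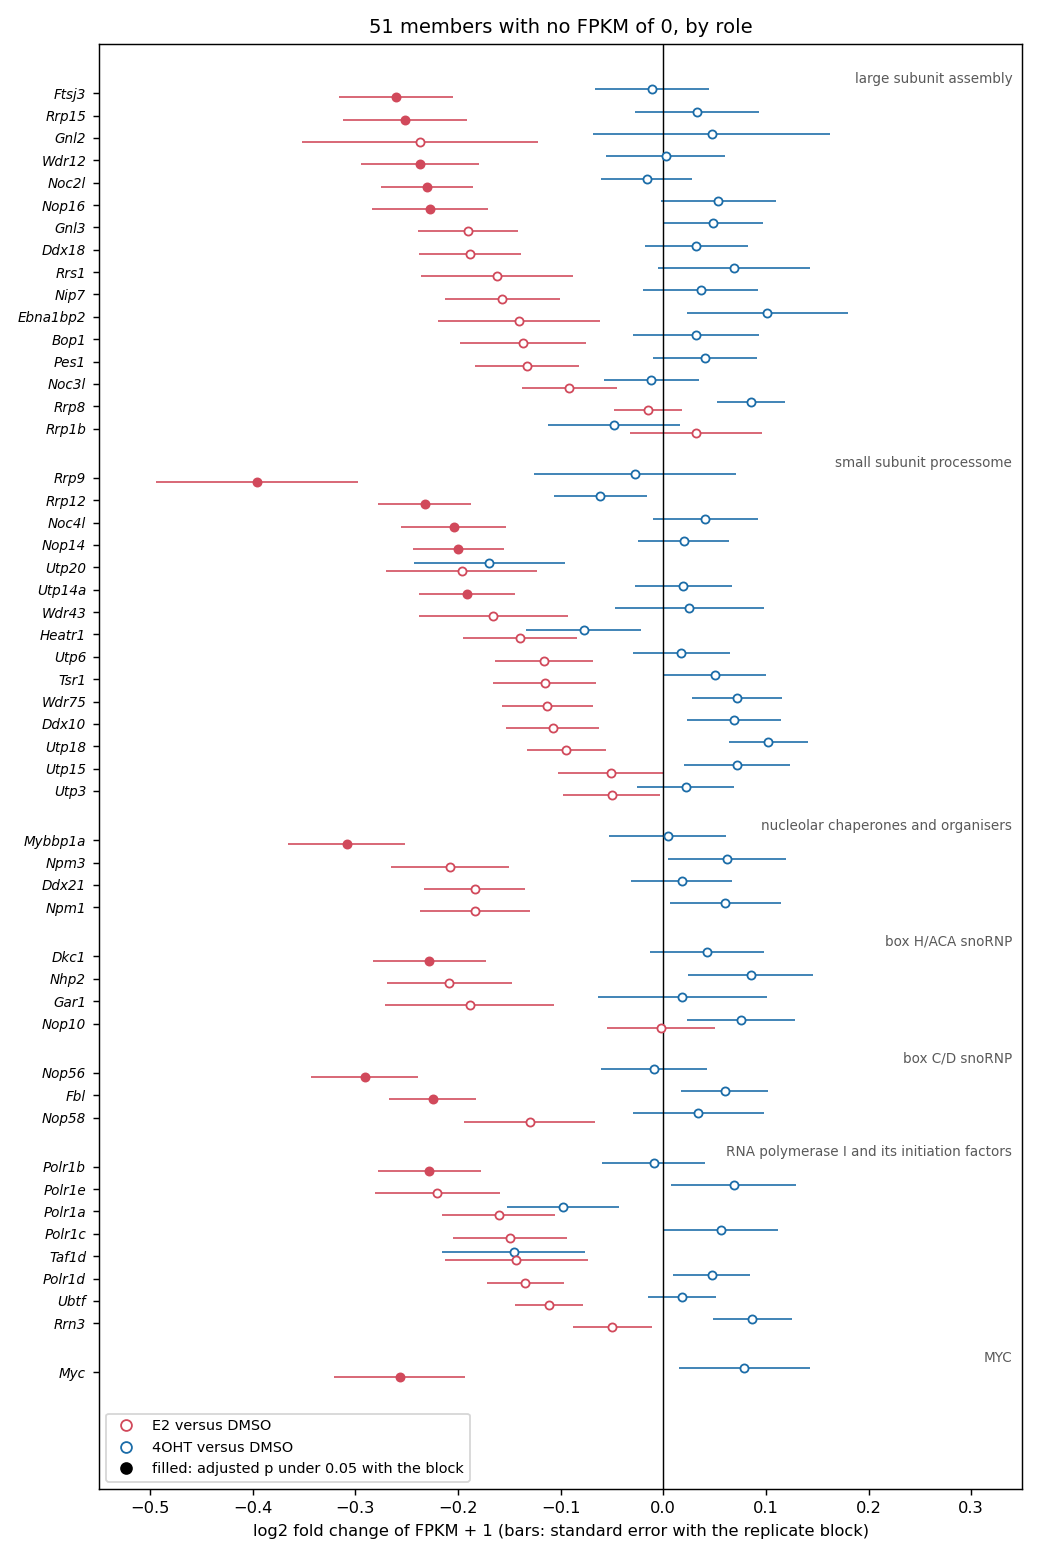
Log2 fold change of FPKM + 1 against DMSO (horizontal axis) with its standard error from the blocked fit, for the 51 members with no FPKM of 0, by role, for E2 and 4OHT. Filled points passed an adjusted p of 0.05 with the block: 16 for E2 and 0 for 4OHT. Nearly all E2 points lie between -0.40 and 0, and the 4OHT points between -0.17 and 0.10.

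The 2 symbols in joined rows were read with their neighbours and cannot be separated from them. The row that joins Nolc1, a chaperone of snoRNPs, to Pprc1 was at 56.6, 83.7 and 64.0 FPKM in DMSO and at 52.1, 61.9 and 52.7 in E2, lower in all 3 pairs. Its log2 fold change was -0.27 (SE 0.056, limma adjusted p = 0.0267 with the block and 0.594 without). For the row that joins Nop2, a methyltransferase of ribosomal RNA, to Chd4 the values were 89.7, 101.0 and 91.4 in DMSO and 86.0, 93.7 and 77.7 in E2, with a log2 fold change of -0.13 and a blocked adjusted p of 0.0678.

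In 4OHT, no change in the members was detectable in these samples. With and without the block, limma called 0 of the 52 members, where the background was 0% of all tested rows. At an unadjusted p under 0.05 the fit without the block called 0 members, against 2.76% of rows, and the blocked fit 2, Utp18 and Rrp8, both higher, against 13.1% of rows. The median log2 fold change of the members was 0.03, the same as over all tested rows, but it became -0.02 when samples were scaled to the same upper quartile or to the same FPKM total. Likewise 39 of 52 members lay above 0 as deposited, against 62.8% of all tested rows, and 15 under either scaling, so these data give no direction. Higher in all 3 pairs were 15 members (28.8%), against 30.2% of all tested rows, and lower in all 3 pairs were 5 (9.62%), Polr1a, Taf1d, Utp20, Heatr1 and Rrp12, against 15.6%. For no member did the 4OHT and DMSO samples stand apart, against 3.57% of rows lower and 4.37% higher. Without Ncl, the members ranged from -0.17 for Utp20 to 0.10 for Utp18, with standard errors of 0.033 to 0.12 in the blocked fit. Myc was at a log2 fold change of 0.08 (SE 0.064 with the block), with 63.9, 103 and 77.2 FPKM against 55.8, 98.1 and 78.5 in DMSO, higher in replicates 1 and 2 and lower in replicate 3.

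The direct comparison of E2 with 4OHT asks whether the estrogen and the receptor modulator left the members at different levels; it uses the same E2 samples as above, and the doses differed, 1 nM against 100 nM. Without the block, 0 of 52 members passed, against 0.159% of tested rows, and 5 had an unadjusted p under 0.05 (Polr1c, Polr1d, Rrn3, Wdr75 and Wdr12), against 11.5% of rows. With the block, 26 members were lower in E2 and 0 were higher, 50% of the members against 7.6% of all tested rows called lower and 8.63% called higher. That count was 1 without replicate 1, 0 without replicate 2 and 0 without replicate 3, against 0.291%, 0.185% and 0.15% of all tested rows, with member medians of -0.23, -0.17 and -0.21. The E2 and 4OHT samples did not overlap for 16 of 52 (30.8%), all with E2 lower, against 9.9% of all tested rows. The median log2 difference of the members was -0.20, against -0.01 over all tested rows. Without 4OHT replicate 2 it was -0.12. The log2 difference was below 0 in 50 of 52, against 54.6% of rows, and 43 of 52 were lower in E2 in all 3 pairs, against 30.9% of rows. With Ncl left out for its zeros, 49 of 51 were below 0.

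By role, the blocked fit called lower in E2 than in 4OHT 4 of 8 RNA polymerase I genes, 2 of 3 box C/D and 2 of 4 box H/ACA proteins, 4 of 5 nucleolar chaperones, 6 of 15 processome members, 7 of 16 large subunit factors, and Myc. Over all tested rows it called 7.6% lower. For Fbl the log2 difference was -0.28 (SE 0.042), with the lowest blocked limma adjusted p of the members, 0.0130. Myc differed by -0.34 (SE 0.064, adjusted p = 0.0241 with the block and 0.569 without). Npm1 and Polr1d, whose E2 and 4OHT samples did not overlap, differed by -0.24 and -0.18 (blocked limma adjusted p = 0.0342 and 0.0287). On the other side, Taf1d and Utp20 were nearly level between the treatments, with log2 differences of 0.00 and -0.03. Rrp1b had the highest log2 difference of the members, 0.08.

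Other genes of the pathway were read from lists of their own. Among 73 tested factors of ribosome biogenesis that are not members, the blocked fit called 7 lower and 0 higher in E2, against 4.63% and 10.4% of all tested rows, 67 had log2 fold changes below 0, against 50.8% of rows, and the median was -0.11. The 3 with the largest fold changes among those called were Ppan, Pdcd11 and Rrp1, each a nucleolar factor of pre-ribosomal RNA processing. Ppan was at 26.2, 38.7 and 33.3 FPKM in DMSO and 24.6, 30.0 and 25.5 in E2 (log2 fold change -0.27, limma adjusted p = 0.0328 with the block), and Rrp1, with its highest values in replicate 1 and not in replicate 2, at 169, 138 and 139 FPKM in DMSO and 146, 123 and 117 in E2 (-0.20, adjusted p = 0.0160). Pdcd11 was at 14.1, 17.1 and 14.5 FPKM in DMSO and 12.8, 14.7 and 11.7 in E2 (-0.21, limma adjusted p = 0.0327). Without the block 0 of these 73 passed, against 0.512% of all tested rows.

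The cytosolic ribosomal protein genes, whose products the members assemble, gave smaller differences. Of 78 tested, 73 had log2 fold changes below 0 in E2, against 50.8% of all tested rows, with a median of -0.05. With the block 0 passed, against 4.63% of rows called lower and 10.4% called higher. Without it 0 passed, against 0.512% in either direction. Between E2 and 4OHT the median was -0.13, and with the block 17 were called lower in E2, against 7.6% of all tested rows. In 4OHT versus DMSO 0 passed, where the background was 0% of all tested rows. The median was 0.07 as deposited, with 77 of 78 above 0 and 59 higher in all 3 pairs, against 62.8% and 30.2% of rows. That median became 0.017 under upper-quartile scaling and 0.015 under equal totals, with 66 and 65 above 0. These genes have many processed pseudogenes, with which reads can be shared. The 28 tested other subunits and factors of RNA polymerases I and III had a median of -0.06 in E2, and 0 passed in either fit, against the same shares of all rows called in E2.

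Genes known as MYC targets outside the ribosome were read in the same way. Of 18 tested, 17 had log2 fold changes below 0 in E2, the median was -0.14, and 4 fell with the block, against 50.8% of all tested rows below 0 and 4.63% called lower. The gene above 0 lay at 2.45, higher in all 3 pairs. It was not called in either fit, a difference within the spread. In 4OHT versus DMSO the highest value of the list was also large, at 1.98, with 0 called higher. The lowest value in E2 lay at -0.37. Cad, the enzyme that starts pyrimidine synthesis, was at 33.6, 49.6 and 41.4 FPKM in DMSO and 29.4, 40.8 and 28.9 in E2 (log2 fold change -0.32, limma adjusted p = 0.0199 with the block). Shmt2, the mitochondrial serine hydroxymethyltransferase, was at 63.0, 129.6 and 108 FPKM in DMSO and 58.5, 90.7 and 85.0 in E2 (-0.32, adjusted p = 0.0489), and Pa2g4, a proliferation-associated protein that is found in the nucleolus, at 146, 203 and 151 FPKM in DMSO and 133, 152 and 130.1 in E2 (-0.26, adjusted p = 0.0382). All 3 were lower in E2 in each replicate, with overlapping groups. The other gene called was Prmt1, an arginine methyltransferase, at -0.23.

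Among 11 tested genes of the MYC network, 1 rose and 0 fell with the block, where 10.4% of all tested rows were called higher, so that the count is no result about the list. Mycn, which encodes a close relative of c-MYC, was at 7.59, 6.99 and 7.45 FPKM in DMSO, 10.9, 8.58 and 9.40 in E2 and 8.10, 7.92 and 7.96 in 4OHT. Every E2 sample was above every DMSO and 4OHT sample, with a log2 fold change of 0.35 (SE 0.058, limma adjusted p = 0.0145 with the block and 0.170 without). In level per transcript length it stayed under Myc in every sample. Of 15 tested genes of the mTORC1 pathway, which couples nutrients to ribosome production, 1 rose with the block and 0 fell, which is again near the background of 10.4%. This was Rheb, the GTPase that activates mTORC1, at 86.3, 85.0 and 88.2 FPKM in DMSO, 121, 103 and 119.7 in E2 and 87.9, 90.3 and 93.8 in 4OHT (log2 fold change 0.40, SE 0.052, limma adjusted p = 0.00697 with the block and 0.0560 without).

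Disturbed ribosome production is known to stabilise p53 through free ribosomal proteins that bind MDM2, and 10 genes of this axis were tested. With the block, 2 fell and 0 rose in E2, against 4.63% and 10.4% of all tested rows. Trp53, the p53 gene, was at 104, 129 and 102 FPKM in DMSO, 88.1, 99.1 and 84.2 in E2 and 110.3, 130.4 and 104 in 4OHT, so that every E2 sample was below every DMSO sample (log2 fold change -0.29, SE 0.035, limma adjusted p = 0.00518 with the block and 0.434 without). Mdm2, which encodes the ubiquitin ligase of p53 and is also its target, was at 139, 164 and 128 FPKM in DMSO and 117, 133 and 107 in E2, with a log2 fold change of -0.27 (limma adjusted p = 0.00327 with the block). Cdkn1a, the best known p53 target, was at 111, 127 and 109.7 FPKM in DMSO and 103, 109.9 and 108 in E2 and did not pass (adjusted p = 0.157). Protein levels are not part of these data.

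Of 6 tested hosts of snoRNAs and RNA components of the processing ribonucleases, 1 fell with the block in E2, against 4.63% of all tested rows. This was the host gene Snhg5, at 24.1, 27.6 and 19.9 FPKM in DMSO and 19.6, 22.2 and 17.3 in E2 (log2 fold change -0.26, limma adjusted p = 0.00769). Rmrp, the RNA of RNase MRP, was at 17.2, 6.20 and 5.36 FPKM in DMSO, 17.0, 8.21 and 14.1 in E2 and 10.2, 9.86 and 58.9 in 4OHT. Rpph1, the RNA of RNase P, was at 8.69, 6.66 and 6.88 in DMSO, 8.83, 2.46 and 7.54 in E2 and 6.44, 6.38 and 32.5 in 4OHT. Both had their highest value in 4OHT replicate 3, far from the other 8 samples, and neither passed in any comparison with or without the block. The paper, with Cuffdiff, lists both as significantly raised by 4OHT. Its libraries were made from RNA selected by oligo-dT, and the effect of that step on these RNAs was not tested.

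The cells responded to E2 by the genes that usually report it, each called with the block only. Greb1, a growth regulator induced by estrogen in breast cells, was at 14.3, 2.58 and 2.30 FPKM in DMSO, 34.3, 20.4 and 14.3 in E2 and 13.2, 3.76 and 3.23 in 4OHT (log2 fold change 2.00, limma adjusted p = 0.00525 with the block). Pgr rose by 2.70 on the log2 scale (limma adjusted p = 0.00253 with the block), and Esr1, the gene of estrogen receptor α, by 0.45. The largest fold change among the members with no zero, -0.40 for Rrp9, was small beside those of Pgr and Greb1 and close in size to that of Esr1.

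**Figure D4:**
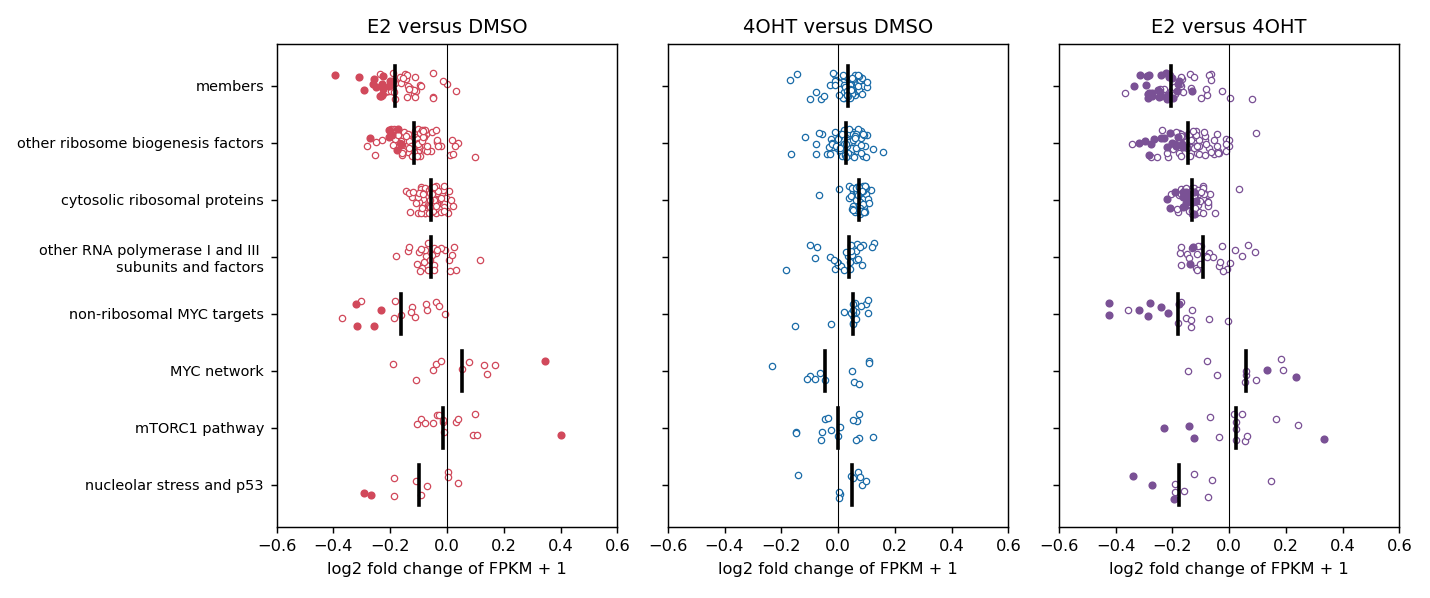
Log2 fold change of FPKM + 1 (horizontal axes) for the members and 7 other gene lists in the 3 comparisons, with 1 point per gene with no FPKM of 0, filled where the blocked adjusted p was under 0.05, and a black bar at the median of the genes drawn. The medians of the members are -0.18, 0.03 and -0.21, and the lists of other biogenesis factors and of MYC targets also lie left of 0 in E2.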

How the data were processed

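RNA from 9 samples of FVB MOE cells was sequenced, 3 each with DMSO, E2 and 4OHT, and grouped by the labels. The deposited FPKM are the authors' Cufflinks estimates for known genes, from trimmed reads that TopHat had placed on mm10. The submitters' processing notes name TopHat2 2.0.8b and Cuffdiff 2.1.1. No read counts were used, so depth was not examined and count tests were not run. A fold change of log2(FPKM + 1) understates changes near 1 FPKM. FPKM are shares of a library, so that values shift with the scaling.

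Rows that reached 1 FPKM in 3 or more samples entered the test, with a pseudocount of 1, in one limma fit with a trend over all 9 samples and Benjamini-Hochberg adjustment within each contrast at 0.05 (R 4.3.3, limma 3.58.1, Python 3.11.15, pandas 2.3.3). Scripts were tested on simulated data. An exact permutation of 3 against 3 samples cannot go below p = 0.1 and was not used. No 2 samples held identical values. A fit that takes the replicate number as a block is printed beside it, since same-numbered samples deviated together: the correlations of their deviations from the group means were 0.52 to 0.83 over the 11094 tested rows with no exact 0, and 0.05 to 0.29 over all 11339. The labels give the numbers but not what they share, so the pairing rests on this check, and over all rows some pairs were at or below 0.1.

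The members and gene lists were chosen with earlier results of these data known. Genes named with full values are Myc, up to 3 per role with the largest E2 fold change past the blocked threshold, all members past it and lower in every pair, the most abundant of each role, members with a 0, and up to 3 genes per other list by the same rule as for roles. Other genes (Polr1a, Ubtf, Rrn3, Nop58, Nhp2, Gar1, Npm3, Ddx21, Pes1, Utp3, Utp15, Utp18, Utp20, Rrp1b, Taf1d, Prmt1, Cdkn1a, Rmrp and Rpph1) were chosen after their values were seen. The 293 rows with joined names and 362 repeated symbols were kept as they are. Coordinates came from the GENCODE annotation of GRCm38 (mm10), and promoters from RefSeq (GRCm38.p6). Alternatives were a pseudocount of 0.1, no filter, upper-quartile or equal-total scaling, 6 samples only, zeros as missing, an adjusted p under 0.01, and each sample or replicate left out.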

Additional observations from a re-analysis of the deposited data

How the results depend on the processing

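The direction of the E2 difference in the members held in every alternative, while the calls depended on the block. Without it 0 of 52 members passed under any alternative. With the replicate number as a block, 16 members passed against DMSO, 16 with a pseudocount of 0.1, 23 with zeros missing and 29 with upper-quartile scaling, each including the 16. The blocked fit without replicate 1 gave 4, and without replicates 2 or 3 it gave 0, as all tested rows called lower went to 0.935%, 0.397% and 0.185%, with member medians of -0.24, -0.13 and -0.18. Against 4OHT these counts were 26, 26, 36 and 27, and 1, 0 and 0 without replicates 1, 2 and 3, with member medians of -0.23, -0.17 and -0.21. The median of the members against DMSO ran from -0.25 to -0.07 as single samples were left out, the latter without DMSO replicate 2, and against 4OHT from -0.26 to -0.12. For 4OHT versus DMSO it ran from -0.051 to 0.13, and was -0.023 under upper-quartile scaling, with or without the block, and -0.025 under equal totals.

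Over all tested rows, the 58 calls in E2 versus DMSO became 32 with no filter, 36 with upper-quartile scaling, 33 with equal totals, 8 with only 6 samples, 6 at an adjusted p under 0.01 and 8 to 50 with single samples left out. With the block they were 1702, with a pseudocount of 0.1 as well 1711, with upper-quartile scaling 1983, with zeros missing 2128, and without replicates 1, 2 and 3 in turn 542, 305 and 155. For 4OHT versus DMSO the 0 calls became 3 with 6 samples, 21 with zeros missing and the block, 0 to 2 with single samples left out, and 4, 5 and 7 with the block and a replicate left out. For E2 versus 4OHT the 18 calls became 10 with a pseudocount of 0.1, 9 with no filter, 7 with 6 samples, 37 with zeros missing, 0 at an adjusted p under 0.01 and 0 to 23 with single samples left out. With the block they were 1840, 1806, 1874 with upper-quartile scaling, 2476 with zeros missing, and 234, 167 and 85 without replicates 1, 2 and 3. Fewer samples or rows entered several of these fits, and otherwise the cause was not tested.

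Among the named genes, Nop10 in E2 turned to 0.066 in the blocked fit without replicate 2 and ran from -0.047 to 0.044 with single samples left out. Ncl in 4OHT turned to 0.050 with zeros missing and the block and to 0.076 in the blocked fit without replicate 2, and Myc in 4OHT ran from -0.14 to 0.27. Of the values of single genes under alternatives, 8 changed sign, 136 newly passed the threshold and 736 did neither.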
